A study of Mus musculus with 6 samples.

Results

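Aminoacyl-tRNA synthetases, the enzymes that join each amino acid to its tRNA, and the scaffold proteins that hold a group of them together were examined in mouse leukemia cells of the MLL-AF10 line given an IKK inhibitor or vehicle. A listed set of 39 genes was looked up by older or current symbol among the 19847 genes tested on the arrays, and 37 were found. These were all 16 mitochondrial synthetases on the list, 18 of its 20 cytosolic synthetases and its 3 scaffold subunits. Aars shares its probe set with another gene and, like Dars, is not analysed here. The line is named for the fusion of MLL (Kmt2a) with AF10 (Mllt10), and cells were grown with serum and WEHI-conditioned medium. There were 6 whole-transcript arrays of total RNA: 3 of cells given the IKK inhibitor at 0.5 µM and 3 of cells given vehicle. Neither a compound name for the inhibitor nor the length of treatment was found in the labels, and both groups are of a single cell line. The labels do not say whether replicates were separate cultures, so the p-values rest on a spread among samples that could be technical.

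Every cell needs synthetases for the amino acids in the cytosol and a further set in the mitochondrion, where the few proteins encoded by mitochondrial DNA are made. Most mammalian mitochondrial enzymes are encoded by nuclear genes of their own, named with a final 2, while glycyl- and lysyl-tRNA synthetase serve both compartments from a single gene, Gars and Kars. The enzymes fall into class I and class II, which have unrelated catalytic folds. In the cytosol of mammals a part of them, with the scaffold proteins Aimp1, Aimp2 and Eef1e1 (also called AIMP3), forms the multisynthetase complex. Transcription of cytosolic synthetase genes is known to be raised by ATF4, the factor made when uncharged tRNA or other stress leads to phosphorylation of eIF2, and by MYC, which drives genes of growth and protein synthesis.

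Promoter sequence was looked at because both factors have known DNA elements. RefSeq windows on GRCm38.p6, from 250 bases before to 50 after a transcription start, were on hand for 28 of the 37 genes, in 30 windows of 300 bases. The C/EBP-ATF element was searched as TGATGNAA and the E-box bound by MYC and MAX as CACGTG, each on both strands. The 5 windows below are those of the 4 members with the C/EBP-ATF letters, and that of Mars2, the member with the lowest fold change over all 6 arrays, which has neither element. Each reads along its gene from 5′ to 3′, and capitals mark the letters of either element.
Yars (chr4:129189653-129189952, plus strand): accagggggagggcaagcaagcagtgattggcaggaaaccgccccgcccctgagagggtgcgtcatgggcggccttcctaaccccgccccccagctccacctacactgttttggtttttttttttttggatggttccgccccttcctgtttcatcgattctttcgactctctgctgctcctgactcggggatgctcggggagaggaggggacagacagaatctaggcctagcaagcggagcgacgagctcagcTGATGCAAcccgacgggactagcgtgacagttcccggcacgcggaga
Gars (chr6:55037751-55038050, plus strand): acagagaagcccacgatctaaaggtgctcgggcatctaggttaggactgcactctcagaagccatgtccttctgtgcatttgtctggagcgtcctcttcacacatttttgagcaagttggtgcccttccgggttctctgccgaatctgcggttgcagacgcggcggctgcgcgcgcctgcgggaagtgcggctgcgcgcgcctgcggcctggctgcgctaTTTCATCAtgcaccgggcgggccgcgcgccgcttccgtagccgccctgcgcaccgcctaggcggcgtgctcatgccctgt
Iars (chr13:49681880-49682179, plus strand): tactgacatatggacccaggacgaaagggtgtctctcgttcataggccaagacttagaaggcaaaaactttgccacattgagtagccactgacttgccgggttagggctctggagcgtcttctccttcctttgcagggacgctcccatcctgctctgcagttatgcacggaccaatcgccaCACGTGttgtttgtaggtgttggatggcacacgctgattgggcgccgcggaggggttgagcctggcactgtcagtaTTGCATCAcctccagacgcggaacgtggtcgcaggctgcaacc
Tars (chr15:11399609-11399908, minus strand): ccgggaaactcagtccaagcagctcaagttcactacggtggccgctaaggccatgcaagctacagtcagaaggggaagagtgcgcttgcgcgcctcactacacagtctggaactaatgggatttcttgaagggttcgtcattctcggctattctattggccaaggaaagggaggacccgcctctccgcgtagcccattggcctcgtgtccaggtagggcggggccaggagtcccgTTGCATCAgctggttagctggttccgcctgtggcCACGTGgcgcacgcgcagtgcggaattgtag
Mars2 (chr1:55236927-55237226, plus strand): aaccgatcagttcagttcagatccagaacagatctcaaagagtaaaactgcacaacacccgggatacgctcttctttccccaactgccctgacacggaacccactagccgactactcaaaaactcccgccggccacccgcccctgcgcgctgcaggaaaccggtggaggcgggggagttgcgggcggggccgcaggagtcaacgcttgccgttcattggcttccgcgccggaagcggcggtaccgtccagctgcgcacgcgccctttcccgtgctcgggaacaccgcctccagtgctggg
The C/EBP-ATF letters stood in 13.3% of the 30 windows and in 3.97% of all 32851 windows. With the first transcribed base as position 1, their leftmost base was at position 4 in Yars, 8 in Iars, -15 in Tars and -30 in Gars. The E-box stood in 13.3% of member windows, those of Farsb, Ears2, Iars and Tars, and in 7.15% of all windows. A single fixed form of the NF-kB element, the family of factors that IKK activates, was in 0 of the 30 windows and in 0.155% of all. The ETS core CCGGAAG, kept after the same windows had been searched for other letters, was in 36.7% of member windows and 8.86% of all. A match describes letters only and is not a binding site, and no 2 of these matches overlapped in a member window.

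Synthetase genes were lower in cells given the inhibitor, by small amounts, across most amino acids and both compartments. With limma, 22 of the 37 genes passed a Benjamini-Hochberg adjusted p of 0.05, all of them lower and 0 higher. Over all 19847 genes tested, 13.9% passed, 6.75% lower and 7.1% higher. That background includes dim genes. Above the 25th percentile of mean intensity (the dim gene filter), 1808 of 14953 genes were called lower and 1615 higher. The log2 fold change was below 0 in 35 of the 37, against 48.1% of all genes, and their median was -0.25, against 0.01 over all genes. In 30 of the 37 the 3 inhibitor arrays all lay below the 3 vehicle arrays, an arrangement found in 17.2% of all genes. The called members stood at between 71.5% and 88.2% of their vehicle level at the 0.5 µM dose. In bulk RNA, fewer cells of a type and less RNA per cell cannot be told apart.

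**Figure D1:**
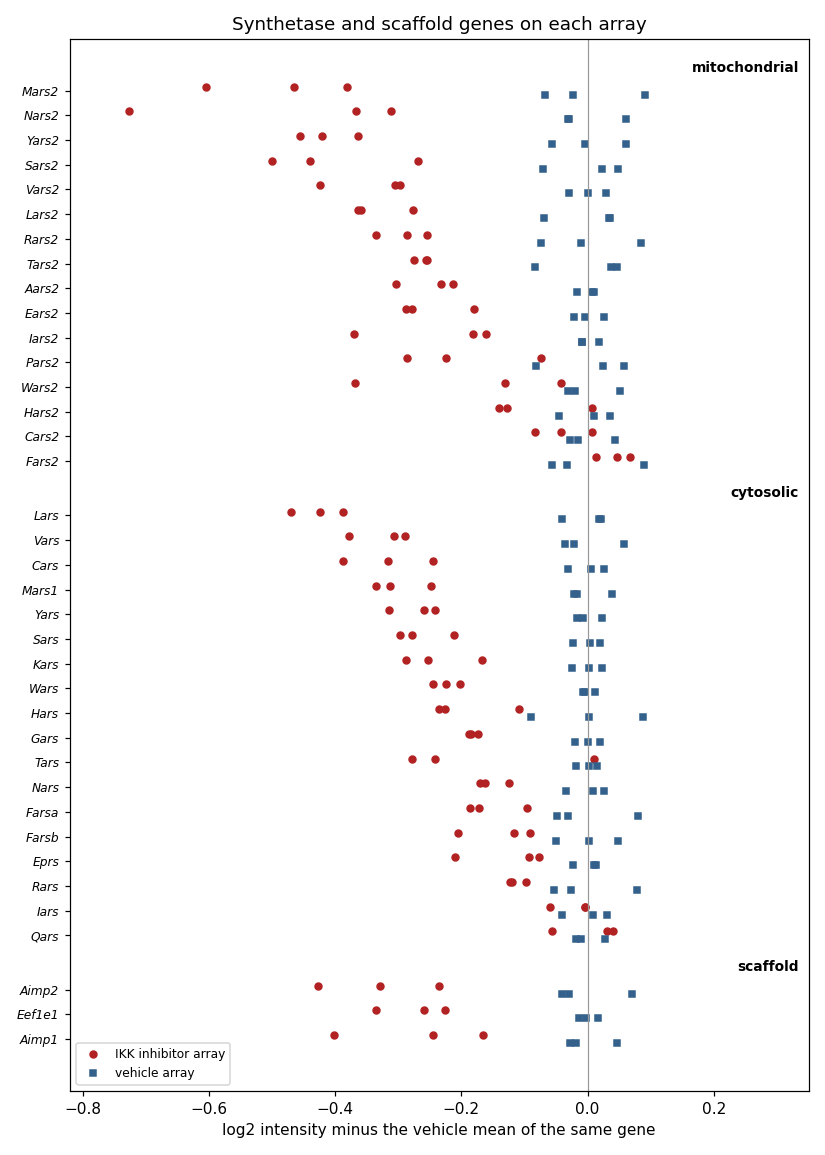
Log2 intensity of each member on each array, minus the mean of its 3 vehicle arrays, for 16 mitochondrial synthetases, 18 cytosolic synthetases and 3 scaffold subunits. Circles are the 3 arrays of cells given the IKK inhibitor and squares the 3 vehicle arrays. In 30 of the 37 genes all circles lie left of all squares, and Fars2, Qars, Iars and Cars2 are among those where they overlap.

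Mitochondrial synthetases were called lower in 10 of 16 cases, against 6.75% of all genes, with a median log2 fold change of -0.26. The value was below 0 in 15 of the 16, against 48.1% of all genes. Mars2, which charges the mitochondrial methionine tRNA for initiation and elongation, had intensities of 282, 299 and 256 in inhibitor-treated cells, against 372, 415 and 383 in vehicle-treated cells. The groups did not overlap, and the log2 fold change of -0.48 ± 0.08 (SE, limma adjusted p = 0.00872) was the lowest value among members over all 6 arrays, though close to that of Nars2 relative to their errors. Nars2 was lower than Mars2 when inhibitor array 1, inhibitor array 2 or vehicle array 2 was left out, and Yars2 was the lowest member when inhibitor array 3 was. Yars2, the tyrosyl enzyme, gave 656, 672 and 699 with the inhibitor and 865, 938 and 897 with vehicle, again with no overlap, for -0.41 ± 0.05 (limma adjusted p = 0.00486). Nars2, the asparaginyl enzyme, gave 403, 419 and 314 with the inhibitor and 508, 509 and 542 with vehicle. Inhibitor array 3 was well below the other two there, and without it the log2 fold change of Nars2 was -0.34 in place of -0.47, still called (limma adjusted p = 0.0268 against 0.0362). Sars2, the seryl enzyme, had 320, 361 and 307 in inhibitor-treated cells, against 414, 442 and 449 in vehicle-treated cells, a fold change of -0.40 ± 0.07 on the log2 scale with no overlap.

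The other mitochondrial enzymes called lower were those for valine (Vars2, log2 fold change -0.34), leucine (Lars2, -0.33), arginine (Rars2, -0.29), threonine (Tars2, -0.26), alanine (Aars2, -0.25) and glutamate (Ears2, -0.25), and none of them overlapped between groups. Mitochondrial glutaminyl-tRNA is made from the product of Ears2 by an amidotransferase whose B subunit, Gatb, is described with the companion genes. Of the 6 mitochondrial enzymes that did not pass, Iars2 came nearest to the threshold. It had 825, 813 and 713 with the inhibitor and 916, 934 and 916 with vehicle, for a log2 fold change of -0.24 (limma adjusted p = 0.064). Pars2 (-0.19) and Wars2 (-0.18) had intervals that reached -0.02 and 0.03 at their upper ends. Hars2 (-0.09), Cars2 (-0.04) and Fars2 (0.04) lay nearer to 0.
Fars2, the single-chain mitochondrial phenylalanyl enzyme, had 189, 182 and 186 in inhibitor-treated cells and 173, 192 and 176 in vehicle-treated cells. Its groups overlapped, and the 95% interval of its log2 fold change ran from -0.09 to 0.18. Cars2, the mitochondrial cysteinyl enzyme, gave 406, 432 and 417 with the inhibitor and 421, 443 and 425 with vehicle, also overlapping, with an interval from -0.16 to 0.08.

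Cytosolic synthetases were called lower in 9 of 18 cases, against 6.75% of all genes, with a median log2 fold change of -0.19. The value was below 0 in 17 of the 18, against 48.1% of all genes. Lars, the leucyl enzyme, which also acts as a leucine sensor for mTORC1 in human cells, had 993, 969 and 938 with the inhibitor and 1316, 1320 and 1264 with vehicle. The 2 sets of arrays were far apart relative to their spread, and the log2 fold change was -0.43 ± 0.05 (SE, limma adjusted p = 0.00296). Vars, the valyl enzyme, had 1035, 1048 and 986 in inhibitor-treated cells, against 1333, 1249 and 1261 in vehicle-treated cells, a log2 fold change of -0.32 ± 0.05. Cars, the cysteinyl enzyme, gave 765, 804 and 728 with the inhibitor and 932, 956 and 969 with vehicle. Its log2 fold change was -0.32 ± 0.06, and neither gene's groups overlapped.

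Mars1, the methionyl enzyme, had 954, 939 and 998 with the inhibitor and 1167, 1217 and 1171 with vehicle (log2 fold change -0.30). Yars, the tyrosyl enzyme, had 1664, 1685 and 1601 with the inhibitor, against 1982, 1970 and 2024 with vehicle (-0.27). Both were separated by group, as were Sars (-0.26) and Wars (-0.22), the seryl enzyme and the interferon-inducible tryptophanyl enzyme. The 2 genes that serve both compartments were called as well: Kars had 1066, 1093 and 1159 in inhibitor-treated cells and 1279, 1322 and 1304 in vehicle-treated cells (-0.24), and Gars had 1931, 1926 and 1945 with the inhibitor and 2195, 2223 and 2163 with vehicle (-0.18). Without these 2 genes, 7 of 16 cytosolic enzymes were called lower.

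The 9 cytosolic enzymes that did not pass had log2 fold changes between -0.19 and 0.0048. In 6 of them, Hars (-0.19), Nars (-0.15), Farsa (-0.15), Farsb (-0.14), Eprs (-0.13) and Rars (-0.11), the inhibitor arrays still all lay below the vehicle arrays. Farsa and Farsb encode the alpha and beta subunits of the same cytosolic phenylalanyl enzyme, and Eprs joins the glutamyl and prolyl enzymes in a single protein. Tars, the threonyl enzyme, had 1192, 1163 and 1420 with the inhibitor and 1412, 1392 and 1425 with vehicle. Its inhibitor array 3 lay within the vehicle range, and without that array Tars was called lower (log2 fold change -0.26, limma adjusted p = 0.0324, against -0.17 and 0.247 over all arrays). Over the alternative settings the adjusted p of Tars ran from 0.0324 to 0.489.
Iars, the isoleucyl enzyme, had 3258, 3258 and 3134 in inhibitor-treated cells and 3177, 3339 and 3288 in vehicle-treated cells. Its groups overlapped, with a log2 fold change of -0.02 (95% interval -0.14 to 0.09). A second probe set of Iars, of lower mean intensity, gave 2086, 2125 and 2073 with the inhibitor and 2159, 2275 and 2283 with vehicle, a difference of -0.10 in mean log2 intensity with no overlap. That difference lies within the interval of the probe set used, and the 2 probe sets were not tested against each other. Qars, the glutaminyl enzyme, had 1766, 1776 and 1661 with the inhibitor, against 1705, 1716 and 1762 with vehicle, overlapping and with an interval from -0.12 to 0.13.

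**Figure D2:**
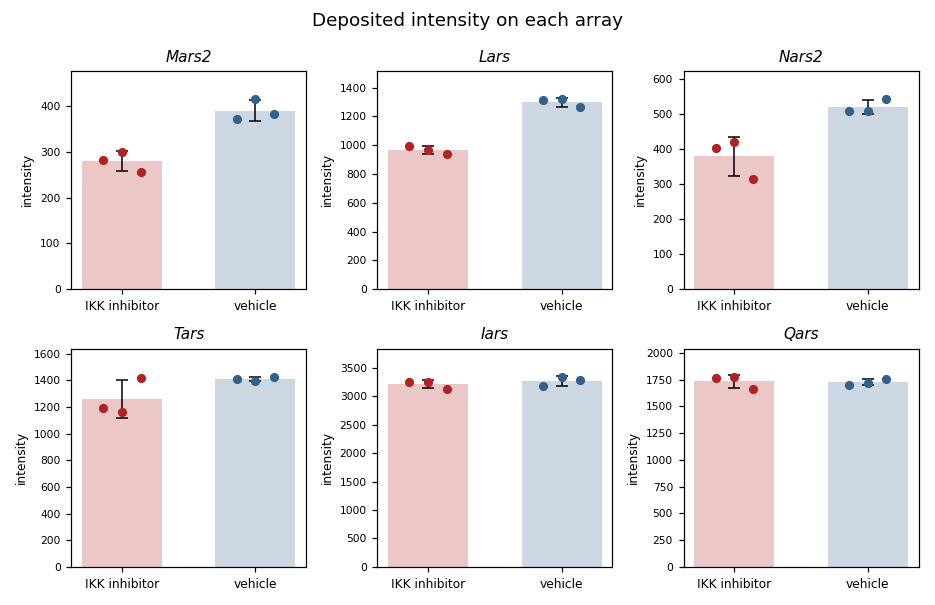
Deposited linear intensity of 6 members, with the IKK inhibitor left and vehicle right in each panel. Bars are means, error bars the SD of 3 arrays, and points the arrays. Mars2, Lars and Nars2 are separated by group, Tars has 1 inhibitor array at the vehicle level, and Iars and Qars overlap.

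All 3 scaffold subunits of the multisynthetase complex fell. Aimp2, which binds several of the enzymes, had 758, 809 and 708 with the inhibitor and 932, 926 and 999 with vehicle, a log2 fold change of -0.33 ± 0.07. Eef1e1 had 1581, 1545 and 1466 in inhibitor-treated cells, against 1870, 1833 and 1845 in vehicle-treated cells (-0.27 ± 0.05). Aimp1, whose product also gives rise to a secreted cytokine, had 393, 415 and 353 with the inhibitor and 460, 457 and 482 with vehicle (-0.27 ± 0.07, limma adjusted p = 0.0493). None of these overlapped between groups, and Aimp1 was the member nearest the threshold among those called.

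Of the 7 enzymes of the complex that were analysed, Lars, Mars1 and Kars were called lower, while Eprs, Rars, Iars and Qars were not, and their median log2 fold change was -0.13. Among 11 cytosolic enzymes outside the complex 6 were called, with a median of -0.19. By catalytic class, 12 of 18 class I genes and 7 of 15 class II genes were called, with medians of -0.28 and -0.19. Within mitochondrial enzymes the class I and class II medians were -0.29 and -0.25, and within cytosolic enzymes -0.27 and -0.18. Differences between these subsets were not tested.

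**Figure D3:**
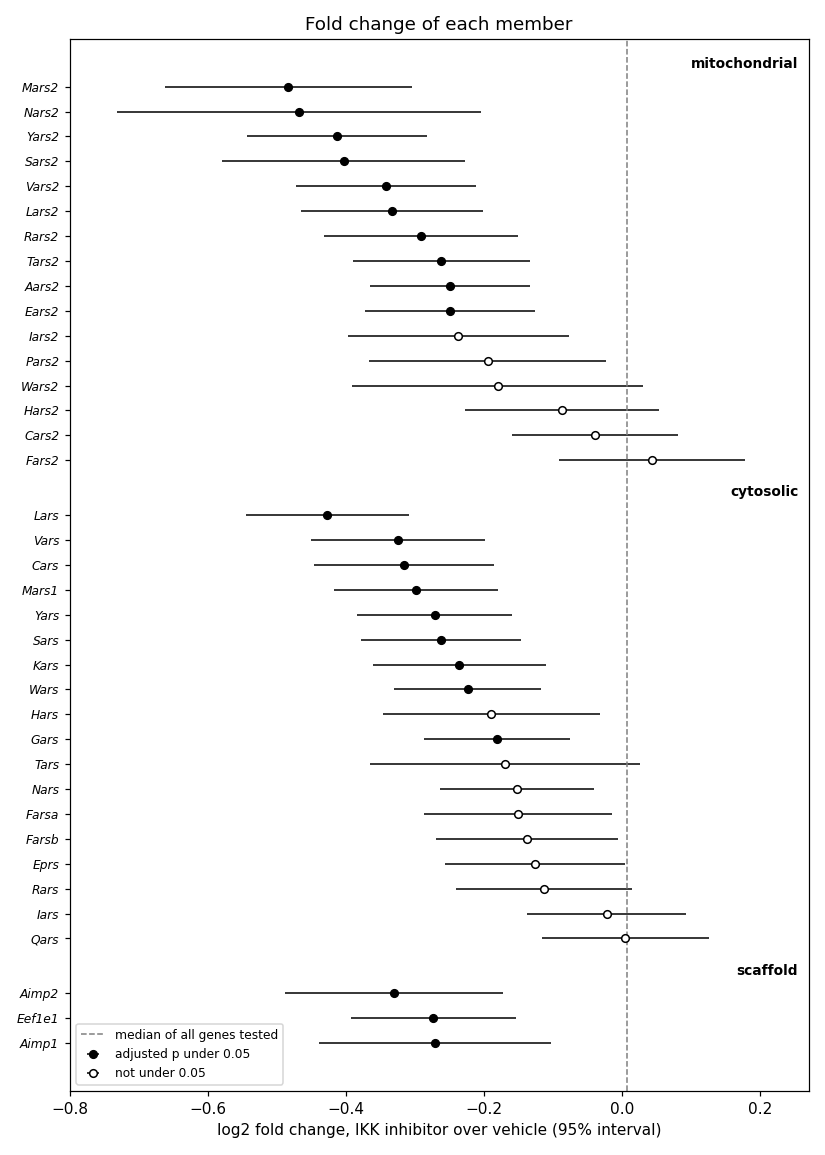
Log2 fold change, IKK inhibitor over vehicle, of each member with its 95% limma interval, by compartment. Filled points passed an adjusted p of 0.05 (10 mitochondrial, 9 cytosolic and 3 scaffold genes), open points did not, and the dashed line is the median of all genes tested, 0.01.

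Mitochondrial and cytosolic enzymes of the same amino acid were set side by side in 16 pairs, with Eprs paired to Ears2 and Pars2, and both Farsa and Farsb to Fars2. The change of the mitochondrial gene minus that of the cytosolic gene had a median of -0.08 and was below 0 in 10 of the 16. In 6 pairs the ratio of mitochondrial to cytosolic intensity was lower on all 3 inhibitor arrays than on any vehicle array: Nars2 to Nars (difference -0.32 on the log2 scale), Iars2 to Iars (-0.21), Mars2 to Mars1 (-0.19), Rars2 to Rars (-0.18), Sars2 to Sars (-0.14) and Ears2 to Eprs (-0.12). The opposite arrangement held for Cars2 to Cars (0.28) and Fars2 to Farsa (0.19). Exact 2-sided permutation tests gave p = 0.1 for each of these 8 pairs, the smallest p that 3 arrays against 3 allow. The adjusted p of these tests over the 16 pairs was 0.2, so no pair passed. Among single genes, inhibitor arrays lay all below vehicle arrays in 17.2% and all above in 15.7%. Ratios of other gene pairs were not examined, so these counts have no background share. Both partners were called lower in 5 pairs, those for methionine, leucine, serine, valine and tyrosine. In 4 pairs the mitochondrial gene alone was called, in 2 the cytosolic gene alone (Cars and Wars), and in 5 neither. This tally depended on the variance model: with an intensity trend and robust prior the mitochondrial gene alone was called in 2 pairs and the cytosolic gene alone in 6, and with array weights the counts were 3 and 4. When inhibitor array 3 was left out they were 1 and 3, so the counts of calls do not order the compartments.

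**Figure D4:**
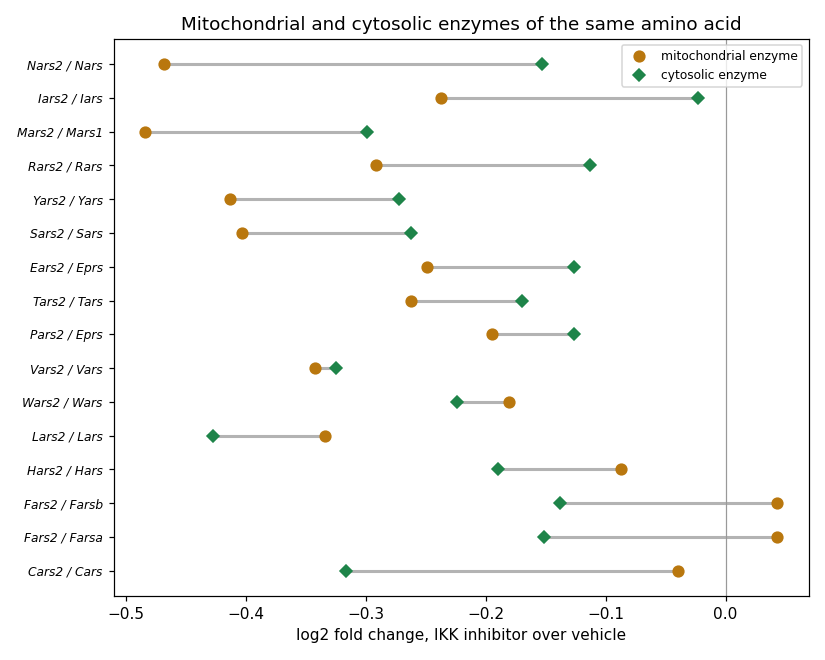
Log2 fold change, IKK inhibitor over vehicle, of the mitochondrial (circle) and cytosolic (diamond) enzyme in 16 pairs, ordered by their difference. Nars2 lies farthest below its partner (-0.47 and -0.15) and Cars2 farthest above (-0.04 and -0.32).

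Some members are also neighbours in the genome. Hars2 and Hars overlap by 4 bases on chromosome 18 of GRCm38, and their log2 fold changes of -0.09 and -0.19 both missed the threshold. Iars2 (chr1:185286642-185329419) and Eprs (chr1:185361417-185428360) lie with 31997 bases between them, and neither was called. Vars2 (chr17:35655634-35667639) and Vars (chr17:35000907-35016329) lie with 639304 bases between them, and both were called lower. Of the 4 members with the C/EBP-ATF letters printed above, Yars and Gars were called lower, and Iars and Tars were not. Of the 4 with an E-box, Ears2 was called. Of the 11 with the ETS core, 9 were called, the exceptions being Cars2 and Farsa. Among all 37 members 22 were called, but 9 of the 37 had no window to search, so these shares are of unlike sets. A link between letters and calls was not tested.

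The direction of the medians did not depend on a single array, but the number of calls did. Leaving out each array in turn kept the mitochondrial median between -0.28 and -0.24 and the cytosolic median between -0.22 and -0.18, and no member was called higher. Of the 22 calls, 16, 2 and 6 were lost when inhibitor arrays 1, 2 and 3 were dropped in turn, and 9, 18 and 16 when vehicle arrays 1, 2 and 3 were. Mitochondrial calls numbered 3, 2 and 3 without inhibitor array 1 and vehicle arrays 2 and 3, and cytosolic calls 2, 2 and 3, with 6 cytosolic calls when vehicle array 1 was left out. Scaffold calls numbered 1 without inhibitor array 1 or 3 and 0 without any vehicle array. Over all genes the calls fell to 1273, 1567, 1183 and 1219 without inhibitor array 1 and vehicle arrays 1, 2 and 3, against 2749 with all arrays. Mars2, Yars2, Lars and Vars were called in all 17 alternative settings, and Iars, Qars, Cars2, Fars2, Hars2 and Wars2 in none. For the other 18 called members the adjusted p under the alternatives reached at most 0.157, that of Aimp1 without vehicle array 3. Inhibitor array 3 was the lowest of its group in 24 of the 37 members, 12 of them mitochondrial, and in 32.2% of all genes. Vehicle array 1 was the lowest of its group in 22 members and in 34.7% of all genes. The part of these arrays in the result was not tested beyond leaving them out.

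Of the factors known to drive synthetase genes, Myc was lower with the inhibitor and Atf4 was not called. Myc had 1900, 1811 and 1895 in inhibitor-treated cells, against 2424, 2334 and 2385 in vehicle-treated cells, with no overlap and a log2 fold change of -0.35 ± 0.05 (limma adjusted p = 0.0056), and it was called in all 17 alternative settings. Atf4 had 2264, 2139 and 2292 with the inhibitor and 2247, 2258 and 2271 with vehicle, overlapping, with a log2 fold change of -0.02 (limma adjusted p = 0.872). ATF4 is controlled largely through translation of its mRNA, which an array does not read. Max, the partner of MYC, gave -0.16 on the log2 scale, above the threshold at an adjusted p of 0.16 by limma. The kinases that phosphorylate eIF2 did not pass either: Eif2ak1 (heme-regulated, 0.02), Eif2ak2 (PKR, -0.22, limma adjusted p = 0.069), Eif2ak3 (PERK, -0.03) and Eif2ak4 (GCN2, which senses uncharged tRNA, 0.07). Gcn1, the activator of GCN2, had -0.09, and Ppp1r15b, a subunit of the phosphatase that reverses the mark, 0.12. Of these 9 genes 1 was lower, against 6.75% of all genes, with a median of -0.03. The inhibitor arrays all lay below the vehicle arrays in 4 of the 9 and all above in 1, arrangements found in 17.2% and 15.7% of all genes. The count of lower genes was 2 without inhibitor array 2, with a floor of 64, with the dim gene filter or with array weights. With an intensity trend and robust prior 3 were lower and 1 higher.

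Of 30 ATF4 target genes other than the synthetases, 7 were called lower and 2 higher, against 6.75% and 7.1% of all genes. Their median log2 fold change was -0.11. The value was below 0 in 23 of the 30, against 48.1% of all genes. The inhibitor arrays all lay below the vehicle arrays in 17 and all above in 4, arrangements found in 17.2% and 15.7% of all genes. The share called higher was close to the 7.1% of all genes, so the count of 2 says nothing particular about this list. Those 2 genes had the smallest p of the list, and each rose by more than any synthetase fell. Slc7a11, the cystine transporter, had 2739, 2778 and 2946 with the inhibitor and 1443, 1432 and 1422 with vehicle (log2 fold change 0.98 ± 0.05), and Atf3, a stress-induced transcription factor, had 247, 291 and 265 with the inhibitor and 107, 115 and 119 with vehicle (1.24 ± 0.08). Among those that fell were the neutral amino acid transporter gene Slc1a4 (-0.53 ± 0.05) and the alanine transaminase gene Gpt2 (-0.40 ± 0.05), with no overlap between groups in either. The count of lower genes was 3 when inhibitor array 1 or any single vehicle array was left out and 5 when inhibitor array 2 or 3 was, while the count of higher genes stayed at 2. With quantile normalization 11 were lower, and with an intensity trend and robust prior 15 were lower and 3 higher.

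Genes that process, modify or export tRNA were the companion group with the largest number of calls, though not the largest share. Of 22 tested, 14 were lower and 0 higher, with a median of -0.26, and all 22 had a log2 fold change below 0. Over all genes, 6.75% were called lower and 48.1% had a value below 0. Rpp40, a protein subunit of RNase P, which trims the 5′ end of tRNA precursors, had 155, 153 and 155 in inhibitor-treated cells and 215, 227 and 229 in vehicle-treated cells (-0.54 ± 0.05). Its groups were widely separated. Pop1, another RNase P subunit, gave -0.40, Adat1, an adenosine deaminase of tRNA, -0.44, and Trmt61a, the catalytic subunit of a tRNA methyltransferase, -0.35. These 4 were called in all 17 alternative settings, but the count of 14 became 4 when inhibitor array 1 was dropped, and 6, 4 and 5 when vehicle arrays 1, 2 and 3 were dropped in turn.

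Of 6 genes for editing and related proteins, 3 were lower and 0 higher (median -0.28), against 6.75% of all genes called lower. Aarsd1, which clears serine from mischarged alanine tRNA, was called at a log2 fold change of -0.40. Pstk and Sepsecs, which act in turn to make selenocysteinyl-tRNA, were called at -0.38 and -0.28. Dtd1, a D-aminoacyl-tRNA deacylase, had -0.28 and did not pass (limma adjusted p = 0.0823). The count was 4 when inhibitor array 2 was left out and 2 when any other array was, array weights gave 5, and Sepsecs, with an adjusted p of 0.0498 by limma, was called in 8 of 17 settings.
Of 13 mitochondrial translation factors, 2 were called lower and 0 higher, against 6.75% of all genes called lower. All 13 had values below 0 (median -0.16). With the dim gene filter 3 of the 13 were called lower, against 1808 of 14953 genes. Gatb, of the amidotransferase named above, had 240, 251 and 253 with the inhibitor and 303, 344 and 298 with vehicle (-0.34), and Gfm1, a mitochondrial elongation factor, had -0.25. Mtif2 (-0.24), a mitochondrial initiation factor, and Mtfmt (-0.39), which formylates the methionyl-tRNA made by Mars2, did not pass. Leaving out inhibitor array 1, inhibitor array 3 or vehicle array 2 took the 2 calls to 0, leaving out vehicle array 3 took them to 1, and leaving out inhibitor array 2 gave 3. An intensity trend with robust prior and array weights each gave 6.

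Cytosolic elongation and termination factors were called lower in 3 of 9 cases and higher in 0 (median -0.16), against 6.75% of all genes called lower. Eef1d, an exchange factor subunit for the elongation factor that delivers charged tRNA, had 341, 392 and 378 in inhibitor-treated cells and 497, 484 and 509 in vehicle-treated cells (-0.43 ± 0.07), without overlap. Etf1, the release factor that reads stop codons, had -0.22, Abce1, which recycles ribosomes, -0.23, and Eef2k, the kinase of the elongation factor Eef2, -0.17 and did not pass. Eef1d was called in all 17 alternative settings, while the count was 2 when inhibitor array 2 was left out and 1 when any other array was. It was 5 with quantile normalization, a floor of 64, the dim gene filter or the intensity trend.

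**Figure D5:**
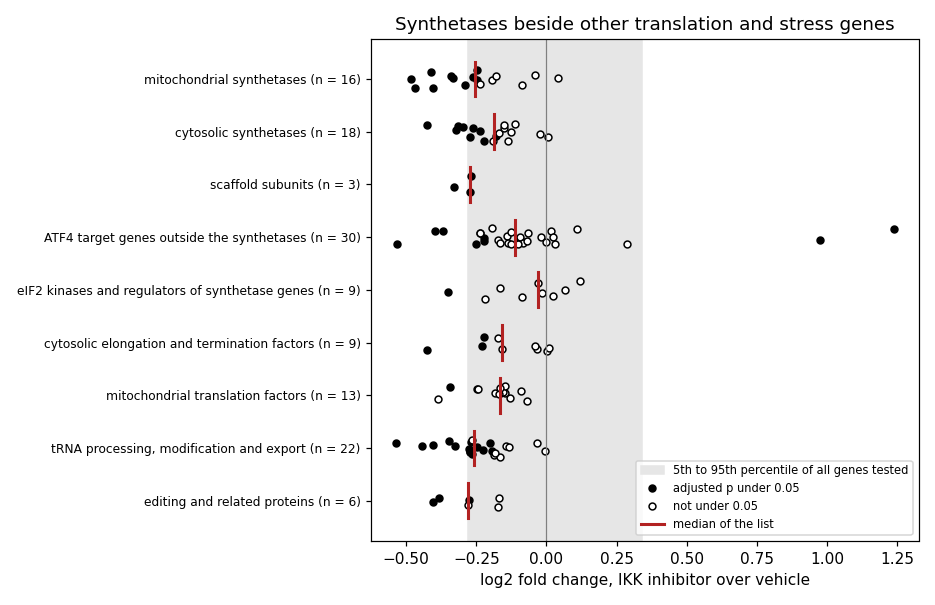
Log2 fold change, IKK inhibitor over vehicle, of each gene in the synthetase classes and in 6 companion lists. Filled points passed an adjusted p of 0.05, red bars are list medians, and the grey band runs from the 5th to the 95th percentile of all genes tested (-0.28 to 0.34). The medians of the 3 synthetase classes lie at -0.26, -0.19 and -0.27, all left of 0, and Slc7a11 and Atf3 stand far to the right.

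The make-up of the cells' RNA moved in the same comparison. Over all genes, 7.1% were called higher and 6.75% lower. Of 10 monocyte and macrophage markers 9 were higher and 0 lower, and their summed intensity was 18825 to 20056 on inhibitor arrays against 10310 to 10697 on vehicle arrays. The receptor gene Csf1r, for example, had a log2 fold change of 1.23. Of 10 granulocyte and monocyte progenitor markers 7 were lower and 0 higher. Their summed intensities were 15600 to 15984 on inhibitor arrays against 18561 to 19188 on vehicle arrays. Their median log2 fold change was -0.29. Mpo, the myeloperoxidase gene, had by far the lowest value, -2.62, and Ms4a3 was next at -0.56. The 7 became 4 when inhibitor array 1, vehicle array 2 or vehicle array 3 was left out. None of 6 T cell, 5 B cell and 3 erythroid markers was called, and the sums of each of these lists overlapped between groups. The table has no detection calls, so no marker can be said to be absent. The part of the marker changes in the lower synthetase levels was not tested. Array medians lay between 112 and 124, and log2 values correlated at 0.993 to 0.997 within groups and 0.988 to 0.991 between them.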

How the data were processed

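Per the labels, total RNA of 6 samples was read on Affymetrix whole-transcript arrays. The authors' deposited values are linear intensities of 35512 probe sets, for which the submitters' processing notes name Affymetrix Expression Console. No label gives its version, the summarization or any normalization. Values below 16 (5.94%) were set to 16, which understates changes of dim genes, though no member was at that floor, and log2 was taken. Probe sets with 1 gene symbol (21789) were named through the platform annotation, updated by Entrez number for 21698, and those with several (1621) or none (12102) were left out. For each gene the probe set with the highest mean was used. Genes at the floor on every array were dropped, leaving 19847. Groups came from the treatment label, and limma 3.58.1 (R 4.3.3) gave the comparison (2-sided, no covariates, Benjamini-Hochberg over all genes). The fit was tested on simulated data with independent normal noise. It found 79 of 100 genes changed by 0.5 on the log2 scale and 100 of 100 changed by 1. It also called 9 genes that had not been changed. Smaller changes, such as those of all members, were not simulated. Pairs of enzymes were compared by exact permutation with scipy 1.17.1. The number of arrays limits precision.

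Members and companion lists were chosen with earlier results of these data known, so they give no independent support. Named genes are all members, all 9 eIF2 kinases and regulators, and up to 4 genes of each other list with the smallest p. Of the list names, 1 was matched by its older symbol. Companion genes not found under 1 symbol are not analysed here. Alternatives were other floors (1, 32, 64), log2 of intensity plus 16, other scalings, probe set means, a dim gene filter, other variance models, a replicate block and leaving out each array.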

Additional observations from a re-analysis of the deposited data

How the results depend on the processing

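No member was called higher under any of the 17 alternatives, and Qars alone changed sign: its log2 fold change of 0.0048 became -0.0076 with quantile normalization, -0.0291 with each array centred on its median, and -0.0085, -0.0128, -0.0045 and -9.87e-05 when inhibitor array 1, inhibitor array 2, vehicle array 1 or vehicle array 2 was left out (range over left-out arrays -0.0128 to 0.0357). Mitochondrial calls of 10, cytosolic calls of 9 and scaffold calls of 3, all lower, became 5, 4 and 1 with a replicate block, where 12 of the 22 calls were lost, and calls over all genes 1679 in place of 2749. The block also gave 3 lower ATF4 targets in place of 7 and 8 lower tRNA processing genes in place of 14, and elongation and mitochondrial factors 1 each in place of 3 and 2. Whether the replicate numbers pair the samples is not known. Deviations of same-numbered arrays correlated at 0.24, 0.13 and -0.09, and inhibitor arrays 2 and 3 correlated best with vehicle arrays of another number. These deviations were taken from means of only 3 arrays, so the correlations cannot decide whether samples were paired. With an intensity trend and robust prior the cytosolic calls became 15 and those over all genes 4199, and with array weights the latter were 4334. The cytosolic median of -0.19 became -0.22 with each array centred on its median and -0.21 with array weights. Leaving out each array gave 2 to 10 mitochondrial, 2 to 9 cytosolic and 0 to 3 scaffold calls, 1183 to 2810 calls over all genes, and cytosolic medians from -0.22 to -0.18. Leaving out an array or adding the replicate block leaves fewer residual degrees of freedom. Calls over all genes were 2810 without inhibitor array 2 and 1183 without vehicle array 2. The cause of the shifts was not tested. Other floors, the dim gene filter and probe set means changed the call of at most 2 members each.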
